A study of Mus musculus with 17 samples.

Results

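Amino acid metabolism and the urea cycle were described here as a set of genes in the liver of mice without alpha-fetoprotein, the main serum protein of the fetus. The set held 59 listed genes, and a gene counted as measured where the platform gave its symbol to a probe. Of these, 41 had a probe on the array, among 9030 named genes in all, and Mut was found under its present symbol Mmut. The other 18 are not analysed here, namely Cps1, Otc, Nags, Gls2, Gcsh, Agxt, Sds, Sdsl, Tdo2, Kmo, Kynu, Haao, Ahcy, Bhmt, Cbs, Amdhd1, Dbt and Mccc2. The mutants were 6 adult Afp knockout males aged 17 weeks and 6 Afp knockout embryos, 3 female and 3 male, whose labels give fetal liver and an embryonic day of 7.5, kept here as a label. Total liver RNA of each mutant was set on 2-colour cDNA arrays against pooled liver RNA of wild-type animals, taken from 6 males of the same age for the adults and from 4 named animals for the embryos. The sources used here name no strain and no allele beyond the knockout of Afp.

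The liver removes nitrogen from amino acids that the body does not need for protein. Aminotransferases move it onto glutamate and aspartate, the urea cycle turns the resulting ammonia into urea, and separate pathways burn the carbon skeletons of tyrosine, methionine, histidine, proline, the branched-chain amino acids and lysine. Many of these enzymes are made mainly in hepatocytes, are low before birth and are set by glucocorticoids, glucagon and the supply of amino acids.

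Each value is a log2 ratio of mutant over pool, so that a negative value is lower in the mutant and 0 is no difference. Each array held 20078 to 20697 values of 20794 rows, with array medians from -0.11 to 0.085 in the adults and from -0.016 to 0.025 in the embryos. The direction is likely, not stated. It rests on Afp in the embryos, which averaged -8.40 ± 0.23 (SD, n = 6, limma adjusted p = 1.25e-08), and on extreme values: those beyond 10 in size were all positive on adult arrays with the mutant in Cy5 (168) and all negative on those with the mutant in Cy3 (140), as columns already turned to mutant over pool would give. In the adults Afp averaged -0.025 ± 0.19 (SD, n = 6, adjusted p = 0.944), which leaves their knockout label unchecked. Fetal values were read 11 rows further down, where probes of the same gene correlated at 0.0887 over 4690 pairs, against -0.0032 in the rows as deposited, as a description. Ratios give no level in either channel, so whether liver markers were present cannot be read from them.

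Promoters are shown for 4 of the genes on which the results turn, since these stood together or apart in the same animals. They are the RefSeq sequences of build GRCm38.p6, 300 bases each around the start of the gene, 5′ to 3′ on its own strand. Capitals mark matches on either strand to the letters CCAAT, to the letters TATAAA or to TGATGNAA, the element through which C/EBP and ATF factors act. A match on the other strand reads ATTGG for the first of these and TTTATA for the next. Tat (chr8:109990186-109990485, plus strand) and Asns (chr6:7693160-7693459, minus strand) stood below 0 in every measured adult, Mccc1 (chr3:36000629-36000928, minus strand) above 0 in every adult, and Hgd (chr16:37579903-37580202, plus strand) on opposite sides in adults and embryos.
Tat: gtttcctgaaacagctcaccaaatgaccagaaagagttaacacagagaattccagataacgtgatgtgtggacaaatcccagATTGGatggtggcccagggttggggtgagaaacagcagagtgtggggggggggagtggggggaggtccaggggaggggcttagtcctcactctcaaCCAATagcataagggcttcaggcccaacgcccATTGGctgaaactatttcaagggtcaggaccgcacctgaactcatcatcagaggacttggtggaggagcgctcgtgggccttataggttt
Asns: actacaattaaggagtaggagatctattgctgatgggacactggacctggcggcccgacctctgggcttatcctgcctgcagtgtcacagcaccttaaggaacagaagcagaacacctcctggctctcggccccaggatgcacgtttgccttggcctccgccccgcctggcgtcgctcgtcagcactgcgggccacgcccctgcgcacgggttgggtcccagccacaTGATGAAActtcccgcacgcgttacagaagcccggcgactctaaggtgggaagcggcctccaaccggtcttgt
Mccc1: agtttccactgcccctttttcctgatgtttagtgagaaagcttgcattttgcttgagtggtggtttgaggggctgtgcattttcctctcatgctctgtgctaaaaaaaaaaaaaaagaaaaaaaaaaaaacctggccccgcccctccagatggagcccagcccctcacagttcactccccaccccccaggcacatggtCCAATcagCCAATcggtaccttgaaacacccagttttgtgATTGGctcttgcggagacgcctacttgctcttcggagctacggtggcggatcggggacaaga
Hgd: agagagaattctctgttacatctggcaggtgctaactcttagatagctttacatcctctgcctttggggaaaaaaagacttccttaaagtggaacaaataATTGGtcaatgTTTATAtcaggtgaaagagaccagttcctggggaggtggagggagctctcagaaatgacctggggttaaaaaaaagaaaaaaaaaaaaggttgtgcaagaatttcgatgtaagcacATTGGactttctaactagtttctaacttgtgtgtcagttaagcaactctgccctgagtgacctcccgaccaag
The Asns promoter held TGATGAAA, starting 23 bases before the start of the gene, and TGATGNAA occurred in 3.97% of the 32851 promoters of the same length. The letters CCAAT occurred 3 times in the Tat and Mccc1 promoters and 2 times in that of Hgd, and in 37.4% of all promoters. Hgd also held TATAAA on the other strand, which 13.6% of all promoters held. Such matches are descriptions of the letters alone.

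In adult mutant liver most of the genes lay slightly below 0, and none passed the test. The median of the 41 measured genes was -0.20, with 32 below 0 and 9 above, beside a median of 0.0081 and 48.1% below 0 over all 17039 features. By limma with Benjamini-Hochberg adjustment 0 of 41 passed, as did 0 of 17039 features (0%). At an unadjusted p under 0.05, which is used here only to describe, 11 of 41 (26.8%) were lower and 1 (2.44%) higher, against 4.35% and 3.36% of all features. The genes were chosen with earlier results of these data known. Shares set beside those of all features, here and below, therefore describe the list and test nothing. In every measured animal 7 genes lay below 0 (17.1%), namely Arg1, Glul, Asns, Tat, Hgd, Oat and Pccb, and 1 above (2.44%), Mccc1, against 2.9% and 3.43% of all features. Every gene of the set with an unadjusted p under 0.05 had the same adjusted p = 0.639. These values hold for the likely direction of the Cy3-labelled mutants. With those arrays turned in sign, 24 of 41 lay below 0 (58.5%) with a median of -0.091, close to the 60.9% and -0.092 of all features, and 5 genes passed (12.2%), Csad, Ftcd, Mmut, Prodh2 and Uroc1, all higher, against 10.3% of all features. Of the 1760 features that passed with those arrays turned, 1603 were higher. Wild-type animals were measured only as the pool, so p-values reflect the spread between the mutants and none of that between wild-type animals. In whole liver, fewer cells of a type and less RNA per cell cannot be told apart.

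**Figure D1:**
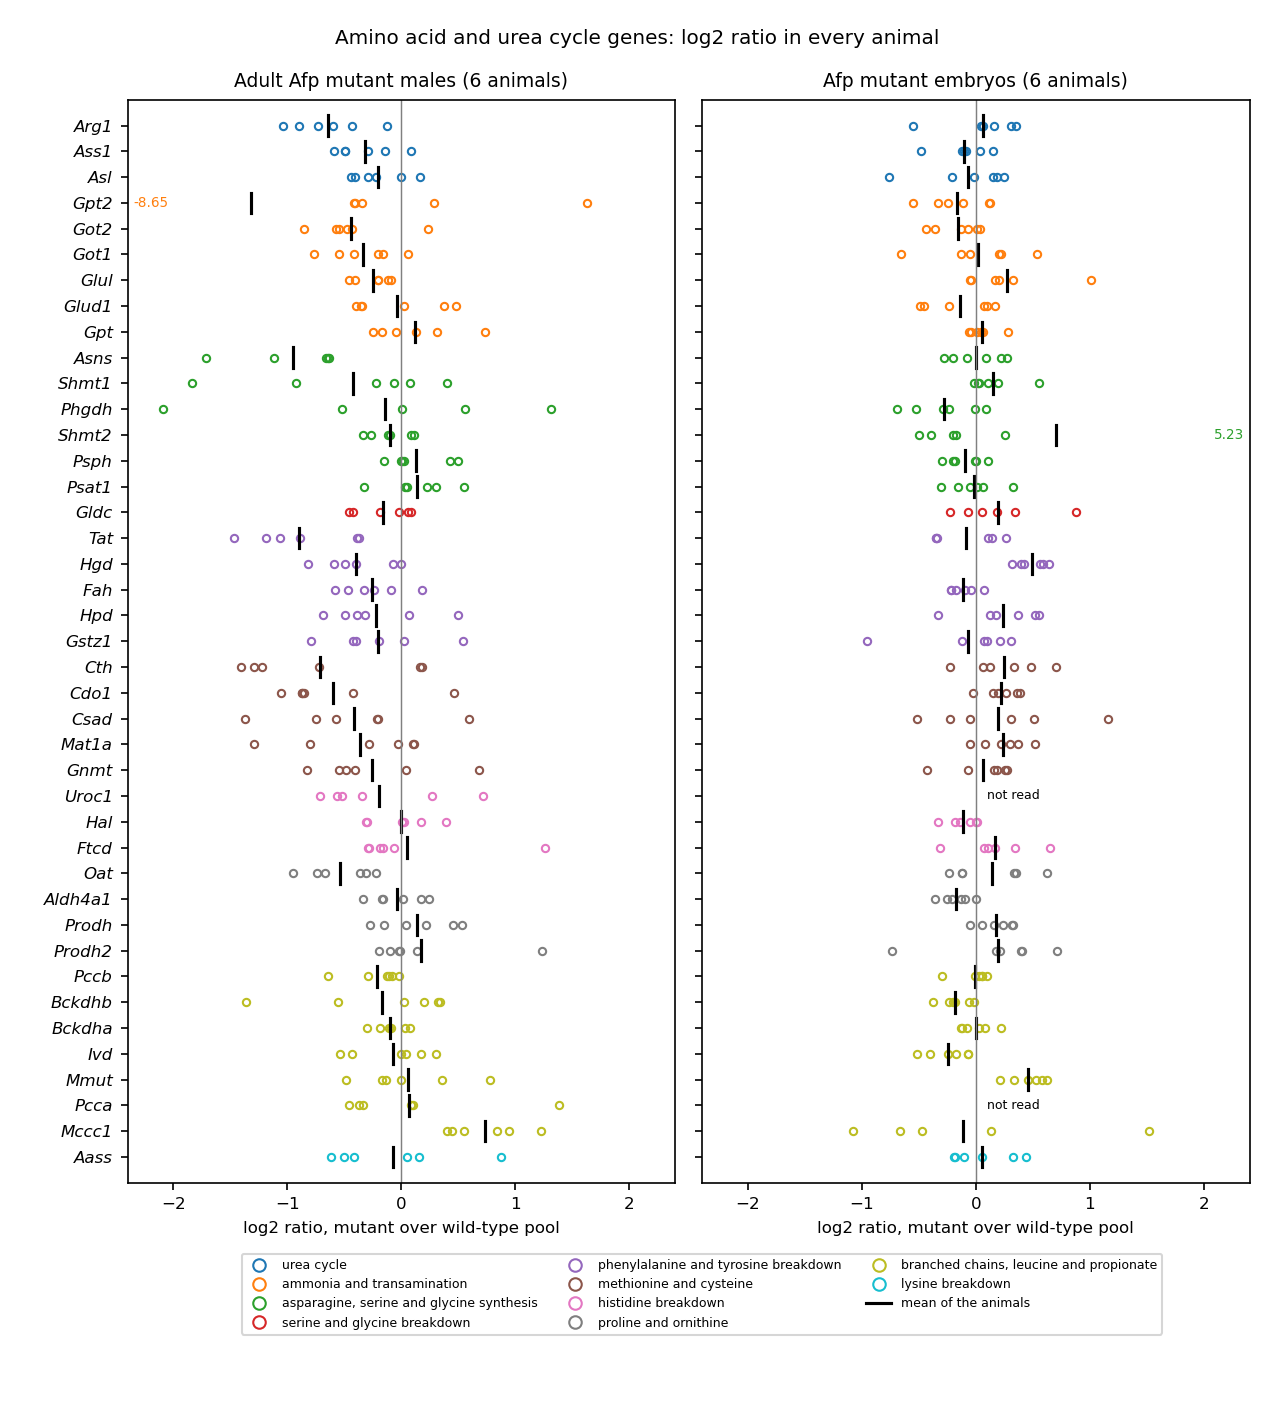
Log2 ratio of mutant over wild-type pool for each of the 41 measured genes, by pathway, with 1 circle per animal and a black bar at the mean; adults are on the left and embryos on the right, and values beyond the axis (-8.65 for Gpt2 and 5.23 for Shmt2) are written at its edge. In the adults 32 of 41 means lie below 0, and in the embryos 22 of 39 lie above it.

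The urea cycle was represented by 3 of its 6 listed genes, each with an adult mean below 0. Arg1, the arginase that splits arginine into urea and ornithine in its last step, stood at -0.12, -0.60, -0.90, -0.73, -0.43 and -1.04 in adults 1 to 6. All 6 lay below 0, animal 1 nearest to it and animal 6 farthest. Arg1 averaged -0.64 ± 0.33 (SD, n = 6), with a 95% confidence interval of -0.95 to -0.32, and its 2 probes averaged -0.71 and -0.56. Ass1, which joins citrulline with aspartate, stood at 0.084, -0.14, -0.59, -0.50, -0.29 and -0.49 and averaged -0.32 ± 0.26 (SD, n = 6). Animal 1 was the exception above 0, and the 3 Ass1 probes averaged -0.47, -0.14 and -0.35. Asl, which releases arginine from argininosuccinate, stood at 0.16, -0.22, -0.40, -0.29, -0.44 and -0.0015, with a mean of -0.20 ± 0.24 (SD, n = 6). Here too animal 1 alone lay above 0, and animal 6 was next to it. With the mutant in Cy5, and then in Cy3, the adult means were -0.59 and -0.73 for Arg1, -0.34 and -0.30 for Ass1 and -0.30 and -0.026 for Asl.

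The genes of ammonia handling and transamination had a median of -0.29 over 6 measured genes, 5 of them below 0. Got2, the mitochondrial aspartate aminotransferase, stood at 0.24, -0.43, -0.54, -0.85, -0.48 and -0.57 in adults 1 to 6 and averaged -0.44 ± 0.36 (SD, n = 6). Animal 1 alone lay above 0. Got1, its cytosolic counterpart, averaged -0.34 ± 0.30 (SD, n = 6), with 5 of 6 animals below 0. Glul, the glutamine synthetase of the cells around the central vein, averaged -0.24 ± 0.15 (SD, n = 6), with animals between -0.46 and -0.089. Its probes differed, at -0.50 and 0.013, so the mean rests on the first of them. Glud1, the glutamate dehydrogenase that releases ammonia, had probes of opposite sign, at -0.38 and 0.31, and averaged -0.036. Gpt, the alanine aminotransferase of the cytosol, was the gene of this group above 0, at 0.12 ± 0.36 (SD, n = 6), with animals from -0.25 to 0.73. Gpt2, its mitochondrial relative, had the lowest mean of the set, -1.32 ± 3.68 (SD, n = 6), which a single reading decided: animal 4 stood at -8.65 through 1 array value beyond 10 in size, while the other 5 animals lay between -0.41 and 1.63.

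The synthesis of asparagine, serine and glycine showed a single gene far from 0, Asns. Asns, the asparagine synthetase, stood at -1.71 in animal 1, -0.64 in animals 3 and 4, -1.11 in animal 5 and -0.66 in animal 6, with no value in animal 2. All 5 measured animals lay below 0, and unlike for most of the set animal 1 was the lowest. Asns averaged -0.95 ± 0.47 (SD, n = 5), with a 95% confidence interval of -1.40 to -0.50. Its arrays with the mutant in Cy5 averaged -0.99 ± 0.44 (SD, n = 5) and those with the mutant in Cy3 -0.57 ± 0.01 (SD, n = 3). The serine synthesis genes lay on both sides of 0. Phgdh, which starts that pathway, spread from -2.09 to 1.32 over 5 animals, Psat1, its aminotransferase, averaged 0.14 ± 0.30 (SD, n = 6) and Psph, its phosphatase, 0.13 ± 0.26 (SD, n = 6). The serine hydroxymethyltransferases, which make glycine and charge folate with carbon, averaged -0.42 ± 0.82 (SD, n = 6) for the cytosolic Shmt1 and -0.10 ± 0.18 (SD, n = 6) for the mitochondrial Shmt2. Gldc, of the glycine cleavage system, averaged -0.16 ± 0.24 (SD, n = 6) and was the measured gene of serine and glycine breakdown.

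All 5 genes of phenylalanine and tyrosine breakdown were measured, and the mean of each lay below 0, with a median of -0.25. Tat, the tyrosine aminotransferase that opens the pathway and is a classic target of glucocorticoids, stood at -0.39, -1.06, -1.18, -0.37, -1.47 and -0.88 in adults 1 to 6. All 6 lay below 0, animals 1 and 4 nearest to it and animal 5 farthest. It averaged -0.89 ± 0.44 (SD, n = 6), with a 95% confidence interval of -1.28 to -0.51. Hgd, which opens the ring of homogentisate, stood at -0.068, -0.004, -0.40, -0.82, -0.49 and -0.59, a mean of -0.39 ± 0.31 (SD, n = 6). Animals 1 and 2 lay next to 0 and the other 4 clearly below it. Hpd, which makes homogentisate, averaged -0.22 ± 0.43 (SD, n = 6), Gstz1, the maleylacetoacetate isomerase, -0.20 ± 0.46 (SD, n = 6) and Fah, the fumarylacetoacetase at the end of the pathway, -0.25 ± 0.27 (SD, n = 6). In these 3 genes animal 2 lay above 0, and animal 1 did so in Hpd and Gstz1.

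Methionine and cysteine metabolism had 5 measured genes of 8, each with a mean below 0 and with a median of -0.42. The median was -0.28 on arrays with the mutant in Cy5 alone and -0.12 with the Cy3 arrays turned in sign, where 3 of the 5 lay below 0. Cth, the cystathionine gamma-lyase that makes cysteine, stood at 0.16, -0.72, -1.40, -1.22, 0.18 and -1.29 in adults 1 to 6 and averaged -0.71 ± 0.73 (SD, n = 6). Animals 1 and 5 lay above 0 and the other 4 below it. The value depended on the dye, at -0.13 with the mutant in Cy5 and -1.59 with the mutant in Cy3. Cdo1, the dioxygenase that opens cysteine breakdown, stood at 0.46, -0.42, -0.87, -0.87, -0.85 and -1.05, a mean of -0.60 ± 0.56 (SD, n = 6). Animal 1 alone lay above 0, and the other 5 lay at -0.42 or lower. Csad, which leads from there to taurine, averaged -0.42 ± 0.66 (SD, n = 6), but 0.24 with the mutant in Cy5 and -1.41 with the mutant in Cy3. Mat1a, which makes S-adenosylmethionine in adult liver, averaged -0.36 ± 0.57 (SD, n = 6) and Gnmt, which uses it up, -0.26 ± 0.54 (SD, n = 6).

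Among the remaining pathways, proline and ornithine held 1 gene below 0 in every animal and the branched chains the 1 gene above 0 in every animal. Oat, the ornithine aminotransferase, stood at -0.36, -0.22, -0.31, -0.66, -0.94 and -0.74 in adults 1 to 6, a mean of -0.54 ± 0.28 (SD, n = 6). All 6 lay below 0, animal 2 nearest to it and animal 5 farthest. The proline oxidase gene Prodh averaged 0.13 ± 0.32 (SD, n = 6), the hydroxyproline dehydrogenase gene Prodh2 0.18 ± 0.53 (SD, n = 6) and Aldh4a1, the dehydrogenase that both lead to, -0.038 ± 0.22 (SD, n = 6). Without animal 5, measured with the mutant in Cy5 alone, Prodh2 averaged -0.036. Mccc1, the biotin-carrying subunit of the carboxylase of leucine breakdown, stood at 1.23, 0.45, 0.84, 0.40, 0.55 and 0.95, a mean of 0.74 ± 0.33 (SD, n = 6) with a 95% confidence interval of 0.43 to 1.05. All 6 lay above 0, with animal 1 highest, although 1 array with the mutant in Cy5 (animal 3) read -0.081, and with the Cy3 arrays turned in sign the mean was -0.16. The partner subunit Mccc2 is not analysed here.

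The other branched-chain and propionate genes lay near 0 in the adults. Pccb, a subunit of propionyl-CoA carboxylase, averaged -0.21 ± 0.23 (SD, n = 6), with all 6 animals below 0, animal 5 farthest at -0.64, and Pcca, the other subunit, 0.067 ± 0.69 (SD, n = 6). Ivd, the isovaleryl-CoA dehydrogenase, averaged -0.075 ± 0.34 (SD, n = 6) and Mmut, the methylmalonyl-CoA mutase, 0.058 ± 0.44 (SD, n = 6). The branched-chain ketoacid dehydrogenase subunits averaged -0.095 ± 0.14 (SD, n = 6) for Bckdha, whose probes stood at -0.31 and 0.12, and -0.17 ± 0.67 (SD, n = 6) for Bckdhb. In histidine breakdown Hal, the histidase, averaged -0.00075, with probes at 0.021 and -0.022, Uroc1, the urocanase, -0.19 ± 0.56 (SD, n = 6) and Ftcd, the folate-linked last enzyme, 0.048 ± 0.60 (SD, n = 6). Without animal 5 Ftcd averaged -0.20. Aass, which opens lysine breakdown, averaged -0.074 ± 0.56 (SD, n = 6).

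Among the adults, 6 arrays carried the mutant in Cy5 and 5 in Cy3, which showed which genes kept their sign when the dyes were exchanged. Of the 41 genes, 20 had means below 0 in both orientations (48.8%), against 14.9% of all 17037 features with both, 2 had means above 0 in both, Mccc1 and Prodh, and 19 changed sign. Over the 5 adults that have both orientations these counts were 21 (51.2%, against 14.5% of all features), 2 and 18, since Gpt2 then lay below 0 in both. In the same adults 2817 of all 17037 features had means above 0 in both, and 11756 changed sign. A change of sign with the dye was thus common over the whole array. The medians of the set were -0.20 with the mutant in Cy5 and -0.18 with the mutant in Cy3. Tat averaged -0.96 ± 0.54 (SD, n = 6) and -0.70 ± 0.35 (SD, n = 5) in these orientations and Oat -0.50 ± 0.40 (SD, n = 6) and -0.51 ± 0.22 (SD, n = 5). Mccc1 averaged 0.49 ± 0.40 (SD, n = 6) and 1.07 ± 0.93 (SD, n = 5). For 9 genes the dye profile, the difference between the orientations divided by 2, was over 0.5 in size. It was 0.90 for Prodh2, 0.88 for Mmut, 0.83 for Ftcd, 0.79 for Csad and Uroc1 and 0.70 for Cth. It was -0.78 for Bckdhb, 2.13 for Gpt2 and 2.46 for Phgdh, which all rest on few or extreme values. Each orientation taken alone passed 7 genes of the set, 7 of 40 (17.5%) with the mutant in Cy5 against 6.55% of all features, and 7 of 39 (17.9%) with the mutant in Cy3 against 4.19%. With the mutant in Cy5 these were Asns, Tat, Got1 and Pccb, lower, and Ftcd, Mmut and Prodh2, higher. With the mutant in Cy3 they were Arg1, Csad, Cth, Ftcd, Mmut, Prodh2 and Uroc1, all lower. Ftcd, Mmut and Prodh2 thus passed in opposite directions, at 0.74, 0.79 and 0.92 against -1.03, -0.96 and -0.93. These directions were those of the whole array. Of the features that passed, 994 of 1106 were higher with the mutant in Cy5, and 112 lower. With the mutant in Cy3, 684 of 699 were lower.

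**Figure D2:**
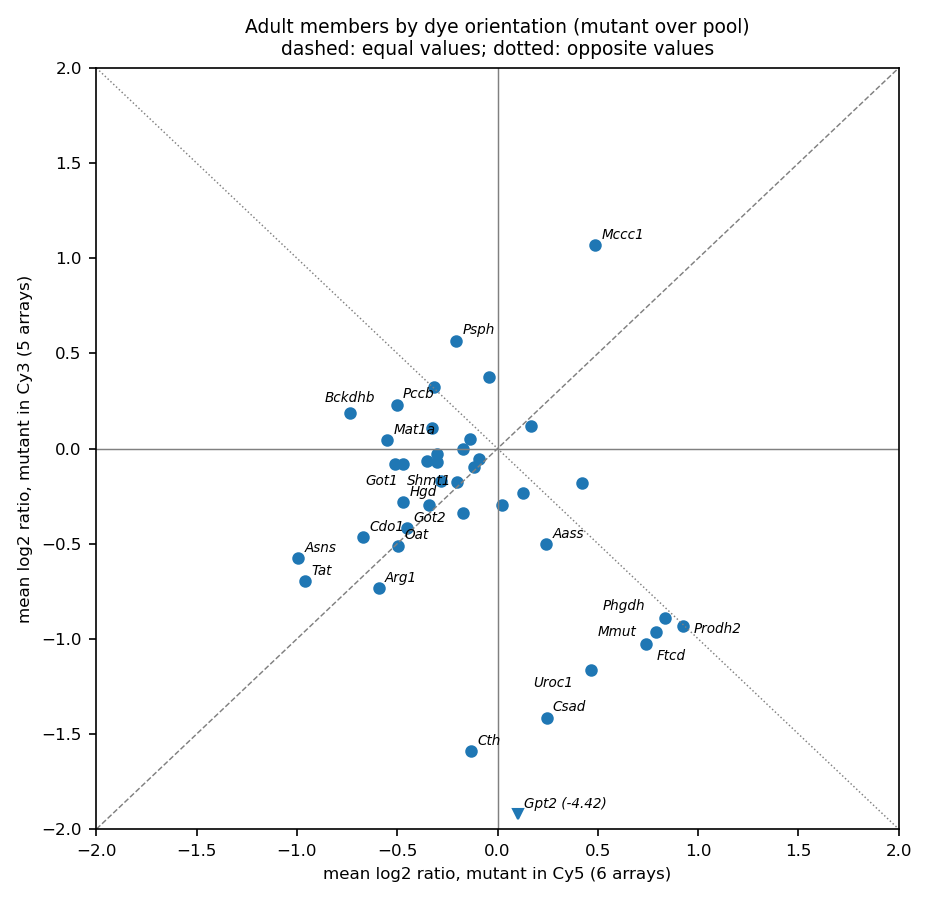
Adult mean log2 ratio of each gene with the mutant in Cy5 (horizontal axis) and in Cy3 (vertical axis), 1 point per gene; Gpt2 lies beyond the axis at -4.42 and is drawn as a triangle. Arg1, Tat, Asns, Oat and Cdo1 lie in the lower left, Mccc1 in the upper right, and Ftcd, Mmut, Prodh2 and Phgdh near the dotted line of opposite values.

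The adults differed among themselves. The median of the set was 0.045, -0.13, -0.30, -0.39, -0.17 and -0.35 in animals 1 to 6, where the median of all features lay between -0.059 and 0.031. Animal 1 alone stood above 0, and animals 3, 4 and 6 were lowest. Hepatocyte markers, of which 13 of 18 had a probe, were lowest in the same 3 animals and highest in animal 1, with medians of 0.20, -0.015, -0.73, -0.79, -0.24 and -0.73 in the same animals. Of these 13 markers 12 had an adult mean below 0 (median -0.32) and 0 passed. Their part in the values of the amino acid genes was not tested. In the embryos 10 of 12 markers lay above 0 (median 0.24), with medians by embryo between -0.014 and 0.51, while the median of the set lay between -0.032 and 0.11. Endothelial markers, 7 of 9 with a probe, lay below 0 in all 6 adults, with medians between -0.59 and -0.090. Exocrine pancreas markers, 5 of 14 with a probe, lay below 0 in all 6 embryos, with medians between -1.69 and -0.47 and 2 genes passing, and the part of either list in the values of the set was not tested.

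**Figure D3:**
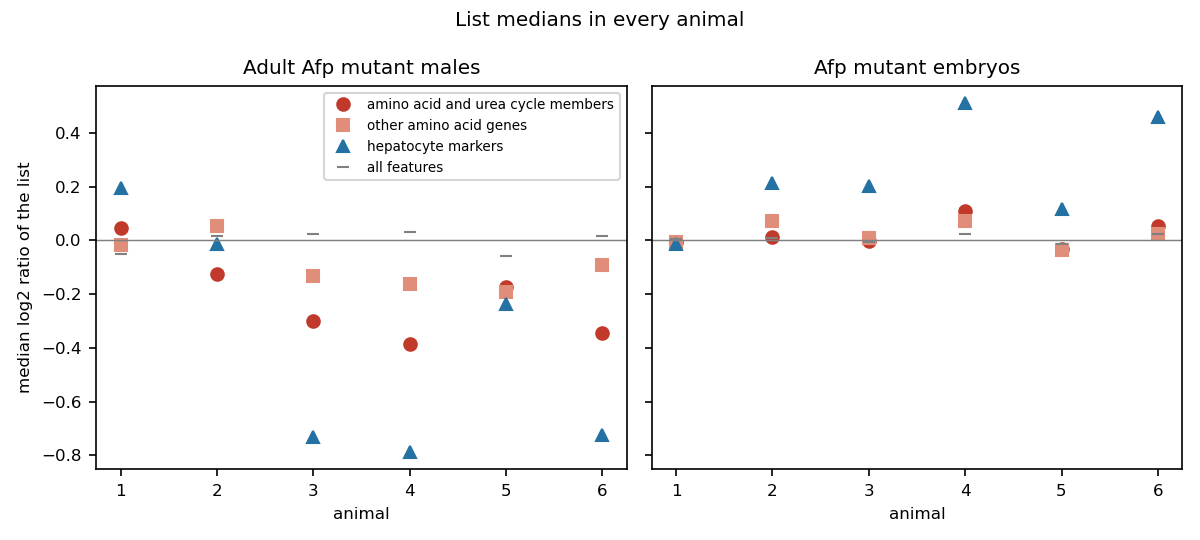
Median log2 ratio in each animal for the amino acid and urea cycle genes, other amino acid genes, hepatocyte markers and all features, with adults on the left and embryos on the right. In adults 3, 4 and 6 the set stands at -0.30, -0.39 and -0.35 and the hepatocyte markers at -0.73, -0.79 and -0.73, while animal 1 lies above 0 for both.

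In mutant embryos the set as a whole stood at 0, and Hgd was the gene with the smallest p. Of the 41 genes 39 were read, since the probes of Uroc1 and Pcca lay beyond row 20000, where fetal rows could not be named. The median was 0.021, with 22 of 39 above 0, beside 0.0046 and 51.0% over all 17242 features. By limma 0 of 39 passed, against 26 features (0.151%). At an unadjusted p under 0.05, 4 genes (10.3%) were lower and 4 (10.3%) higher, close to the 9.88% and 10.9% of all features. In every embryo 3 genes lay below 0 (7.69%), Aldh4a1, Bckdhb and Ivd, and 2 above (5.13%), Hgd and Mmut, against 7.5% and 8.27% of all features. The mutant was in Cy5 on every fetal array, so a dye effect and the mutation cannot be told apart there. The adult dye profile was therefore subtracted as an alternative, under which 15 of 39 genes passed (38.5%), against 30.3% of all features. The profile entered as fixed values, without its own error.

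Hgd stood at 0.64, 0.56, 0.42, 0.59, 0.32 and 0.40 in embryos 1 to 6. All 6 lay above 0 and within a narrow range, embryo 5 lowest and embryo 1 highest. Hgd averaged 0.49 ± 0.13 (SD, n = 6), with a 95% confidence interval of 0.33 to 0.65, and missed the threshold at adjusted p = 0.0525. It passed without values beyond 10 in size (adjusted p = 0.0362), with each probe tested on its own (0.0454), with robust moderation (0.0373) and over features with a value in all embryos (0.0413). It did not pass with each array centred on its median (0.0535) or with any embryo left out (0.0708 to 0.181), and with the rows as deposited its mean was -0.17 (0.219). With the dye profile subtracted the mean was 0.58 (adjusted p = 0.00148). In that fit 30.3% of all features passed, and the error of the profile did not enter the p-value.

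Mmut stood at 0.53, 0.46, 0.62, 0.34, 0.58 and 0.21 in embryos 1 to 6 and averaged 0.46 ± 0.16 (SD, n = 6) (adjusted p = 0.0717). All 6 lay above 0, but the adult dye profile of Mmut was 0.88, and less that profile the mean was -0.42. Ivd stood at -0.17, -0.066, -0.51, -0.24, -0.41 and -0.069, a mean of -0.24 ± 0.18 (SD, n = 6) (adjusted p = 0.157). All 6 lay below 0, embryo 3 farthest, and less the dye profile the mean was -0.19. Bckdhb, a subunit of the branched-chain ketoacid dehydrogenase, stood at -0.18, -0.24, -0.38, -0.014, -0.20 and -0.059, a mean of -0.18 ± 0.13 (SD, n = 6) (adjusted p = 0.211). All 6 lay below 0, embryo 4 next to it, and less the dye profile the mean was 0.60. That profile rests on adults 1 and 2 alone, the adults with a Bckdhb value in both orientations.

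The methionine and cysteine genes, all below 0 in the adults, all had a fetal mean above 0, with a median of 0.22. Cdo1 stood at 0.27, 0.15, 0.36, 0.20, -0.024 and 0.39 in embryos 1 to 6, a mean of 0.22 ± 0.15 (SD, n = 6) (adjusted p = 0.160). Embryo 5 alone lay below 0. Mat1a stood at 0.30, 0.23, 0.081, 0.37, -0.05 and 0.52, a mean of 0.24 ± 0.20 (SD, n = 6) (adjusted p = 0.183). Again embryo 5 alone lay below 0. Less the dye profile these means were 0.31 and 0.46, while that of Cth, 0.25 before, was -0.45 and that of Csad, 0.20 before, was -0.60.

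The urea cycle genes lay near 0 in the embryos. Arg1 stood at 0.16, 0.31, 0.35, 0.048, -0.55 and 0.059 in embryos 1 to 6, a mean of 0.063 ± 0.33 (SD, n = 6). Embryo 5 alone lay below 0, and the others were close together. Ass1 stood at -0.48, -0.11, -0.09, 0.15, -0.12 and 0.032, a mean of -0.10 ± 0.21 (SD, n = 6), and Asl at -0.77, 0.18, -0.013, 0.15, -0.21 and 0.24, a mean of -0.068 ± 0.38 (SD, n = 6). Embryo 1 was the lowest for both, while the remaining embryos lay on either side of 0. Tat averaged -0.089 ± 0.29 (SD, n = 6), Asns 0.004 ± 0.23 (SD, n = 6) and Oat 0.14 ± 0.34 (SD, n = 6), and each of the 3 had embryos on both sides of 0. Mccc1 spread widely, from -1.08 to 1.52 over 5 embryos. Shmt2 had the highest fetal mean, 0.70 ± 2.23 (SD, n = 6), through embryo 2 alone, which read 5.23 because 1 of its 3 probes stood at 16.3; the other 5 embryos lay between -0.50 and 0.25. The remaining genes had fetal means between -0.28, for Phgdh, and 0.27, for Glul.

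To ask where the ratio of mutant to pool differed between the ages, the adult Cy5 arrays were compared with those of the embryos, since both have the same dye layout. Over the 38 genes tested the median difference, adult minus fetal, was -0.24, with 27 below 0 and 11 above, beside -0.022 and 52.3% below 0 over all 16314 features. By limma 0 of 38 passed, against 23 features (0.141%). At an unadjusted p under 0.05, 12 genes (31.6%) were lower in the adults and 4 (10.5%) higher, against 9.24% and 11% of all features. For 3 genes, Asns, Hgd and Cdo1 (7.89%), every adult Cy5 array lay below every embryo, against 1.15% of all features. Age, pool and sex differed together between the groups and cannot be told apart.

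The 6 genes with the smallest p were all lower in the adults, and none passed. Hgd stood at 0.10, -0.011, -0.66, -1.0, -0.49 and -0.77 on the Cy5 arrays of adults 1 to 6, against 0.64, 0.56, 0.42, 0.59, 0.32 and 0.40 in embryos 1 to 6. The groups did not overlap. The difference was -0.96, with a 95% confidence interval of -1.37 to -0.55 (adjusted p = 0.0607). Asns stood at -1.71, -0.73, -0.70, -1.11 and -0.73 in adults 1, 3, 4, 5 and 6, against -0.28, 0.27, -0.20, 0.088, 0.22 and -0.075 in the embryos. The groups did not overlap, and the difference was -0.999, with a 95% confidence interval of -1.44 to -0.55 (adjusted p = 0.0661). Cdo1 stood at -0.056, -0.13, -0.71, -0.91, -0.85 and -1.36 in the adults, against 0.27, 0.15, 0.36, 0.20, -0.024 and 0.39 in the embryos. Its groups only just did not overlap on these arrays, at -0.056 in the highest adult against -0.024 in the lowest embryo. The difference was -0.89 (adjusted p = 0.0723). With the mutant in Cy3, adult 1 read 0.98 for Cdo1, above every embryo.

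Tat, Pccb and Mat1a overlapped between the ages. Tat stood at -0.19, -1.07, -1.27, -0.38, -1.47 and -1.37 on the Cy5 arrays of adults 1 to 6, against -0.35, 0.26, 0.14, 0.11, -0.34 and -0.35 in the embryos, a difference of -0.87 (adjusted p = 0.0882). Adult 1 lay within the fetal range, and adult 4 just below it. Pccb stood at -0.086, -0.64, -0.61, -0.57, -0.64 and -0.48, against -0.29, 0.055, 0.096, 0.029, -0.008 and 0.054, a difference of -0.49 (adjusted p = 0.0868). Adult 1 alone lay above the lowest embryo. Mat1a stood at -0.28, -0.65, -0.70, 0.33, -1.29 and -0.71, against 0.30, 0.23, 0.081, 0.37, -0.05 and 0.52, a difference of -0.79 (adjusted p = 0.0950), and adult 4 alone lay within the fetal range. Among the 4 genes higher in the adults at an unadjusted p under 0.05, Prodh2, Ftcd, Psat1 and Mmut, the differences were 0.73, 0.57, 0.44 and 0.33, with dye profiles of 0.90, 0.83, 0.34 and 0.88. Of the genes lower in the adults, Pccb and Mat1a had dye profiles of -0.35 and -0.22. Their adult means with the mutant in Cy3 lay above 0, at 0.23 and 0.045. Hgd, Asns, Cdo1 and Tat had adult means below 0 in both orientations.

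Adult animal 1 weighed on this comparison. Without it 7 of 37 genes of the set passed (18.9%), against 7.59% of all features: Hgd at -1.08, Tat at -1.03, Cdo1 at -1.02, Asns at -0.82, Arg1 at -0.81, Pccb at -0.58 and Prodh2 at 0.86, with adjusted p between 0.0108 and 0.0388. The count over all features then was 1224, against 23 with all animals. On simulated data this comparison gave more false calls than the threshold implies. Leaving out any other animal passed 0 genes of the set. With the fetal rows named as deposited 5 of 40 passed (12.5%), against 9.38% of all features.

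**Figure D4:**
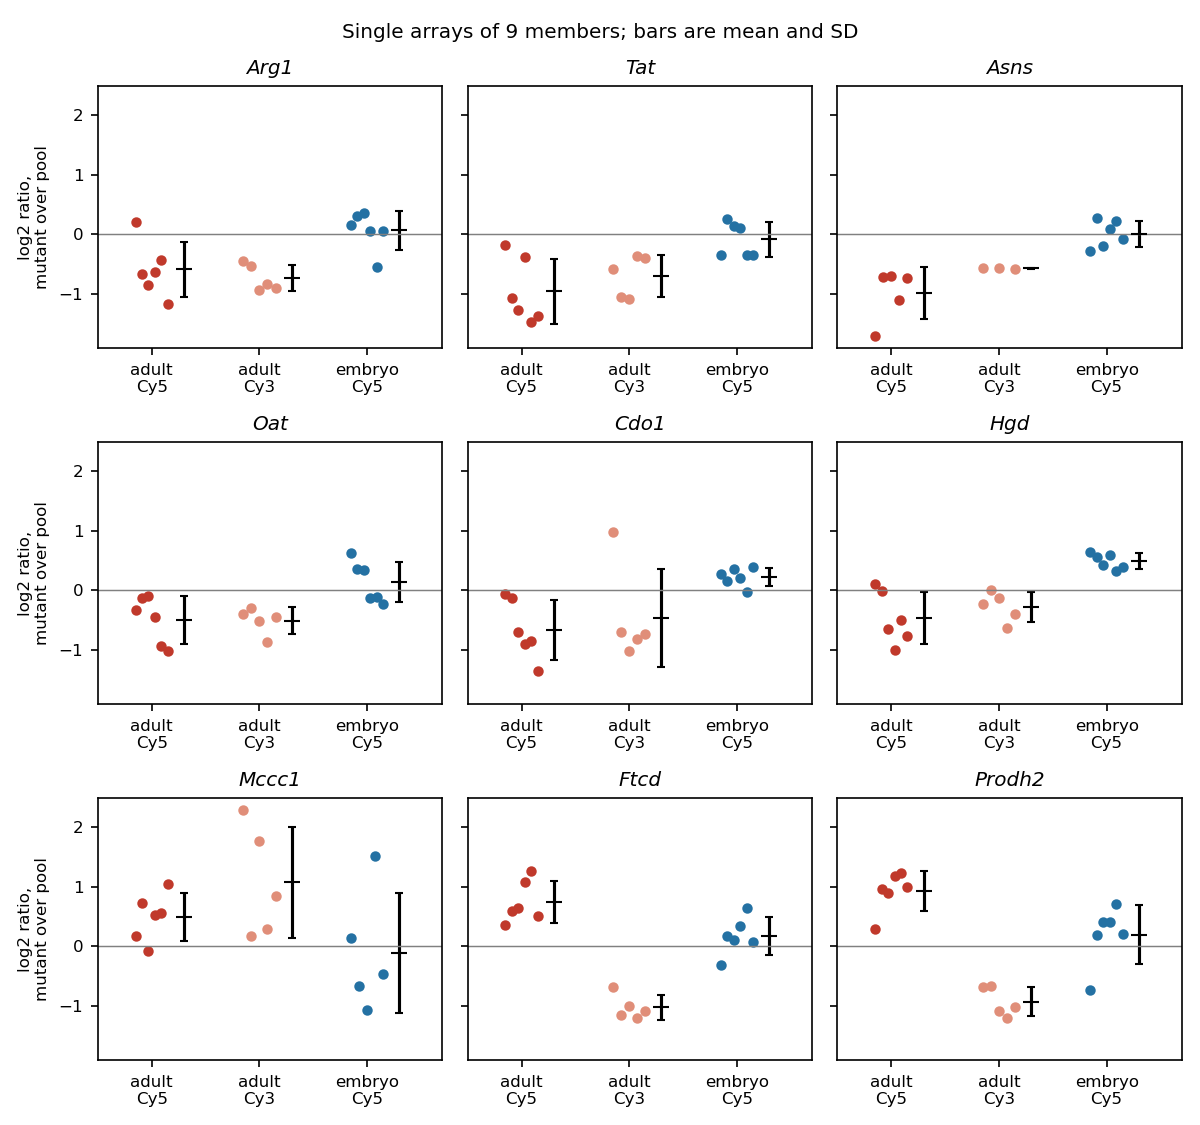
Log2 ratio of mutant over pool on single arrays for 9 genes, with the adult Cy5 arrays, the adult Cy3 arrays and the embryos from left to right; the bars give mean and SD. Asns, Hgd and Cdo1 have every adult Cy5 array below every embryo, Mccc1 lies above 0 in both adult orientations, and Ftcd and Prodh2 have opposite signs in the adult orientations.

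Female and male mutant embryos were compared next. The label of the pool was female for the 3 females and for male 3, and male for males 1 and 2, so sex and pool largely coincided. By limma 0 of 39 genes passed, against 2 features (0.0116%), and at an unadjusted p under 0.05 there were 2 (5.13%), Oat and Glud1, against 3.18% of all features. Oat stood at -0.12, -0.12 and -0.23 in the 3 females, against 0.62, 0.35 and 0.34 in the 3 males. The sexes did not overlap, and the difference was -0.59, with adjusted p = 0.998. Glud1 averaged 0.11 ± 0.051 in females and -0.39 ± 0.14 in males (SD, n = 3 each), a difference of 0.51 (adjusted p = 0.998), again without overlap. Only 1 of its 2 probes separated the sexes, at 0.059 to 0.165 in females and -1.215 to -0.412 in males. The other probe overlapped, at 0.027 to 0.23 in females and -0.433 to 0.298 in males. Separation was not particular to Oat and Glud1. Arg1 reached at most 0.060 in females and at least 0.16 in males. Fah lay at -0.095 or higher in females and at -0.18 or lower in males. How many of all features separate the sexes was not counted. Arg1 averaged -0.15 ± 0.35 in females and 0.27 ± 0.10 in males (SD, n = 3 each), a difference of -0.42 (adjusted p = 0.998). Embryo 5, at -0.55, was the lowest female, and the other 2 females lay at 0.048 and 0.060.

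Further genes of amino acid metabolism lay nearer to 0 than the set in the adults. Of 90 such genes 47 had a probe, with an adult median of -0.11, 29 below 0 and 18 above. Of these 0 passed. At an unadjusted p under 0.05, 5 of the 47 were lower and 1 higher, against 4.35% and 3.36% of all features. The 3 with the smallest p were Dmgdh, the dimethylglycine dehydrogenase, at -0.33 ± 0.24, Pcbd1, which recycles the cofactor of phenylalanine hydroxylase, at -0.39 ± 0.32 and Mmachc, which processes vitamin B12, at 0.33 ± 0.26 (SD, n = 6 each). In the embryos 45 were read, with a median of -0.019 and 0 passing. The smallest p belonged to Bckdk, the kinase that switches off branched-chain breakdown, Mthfd1, a folate enzyme, and Gamt, which makes creatine. They averaged -0.29 ± 0.13, 0.29 ± 0.19 and -0.19 ± 0.091 (SD, n = 6 each). Their adult dye profiles were -0.28, 0.73 and 0.26. With the mutant in Cy5 on every fetal array, a dye effect and the mutation cannot be told apart in these means. Between the ages this list had a median difference of -0.18 over 44 genes, with 0 passing. At an unadjusted p under 0.05, 6 of the 44 were higher and 5 lower in the adults, against 11% and 9.24% of all features.

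Regulators of these pathways showed no gene past the threshold. Of 23 listed 14 had a probe, with a median of -0.082 in the adults, 11 below 0 and 3 above, and of 0.0048 in the embryos, 7 on each side. Between the ages their median difference was -0.10 over the 14 genes, with 9 below 0.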

How the data were processed

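The authors deposited 1 table of log2 ratios, 17 arrays by 20794 rows. For image analysis, background correction, normalization and spot filter no source used here gives the steps, and the log2 base was inferred from the size of the tails. Per the labels' protocols, RNA was labelled indirectly with Cy3 or Cy5. The platform's annotation names 12771 rows with 1 gene symbol and 8023 with none. Arrays of an animal were averaged per probe, and probes were then averaged per gene (52 probes for the 41 genes, 9 genes with several). Adult arrays with the mutant in Cy3 were kept as deposited, and fetal rows were moved by 11 rows up to row 20000. Both choices were made after the data were seen.

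The test was limma's moderated test (lmFit, eBayes; version 3.58.1, R 4.3.3) across all features with values in at least 4 animals per group, or 2 per sex and 4 in all, with Benjamini-Hochberg adjusted p under 0.05 as the threshold. The fits were tested on simulated data. Values per animal were given for the urea cycle genes, for the 6 genes with the smallest p in the adult, the fetal and the adult minus fetal fits, and for up to 3 between the sexes; both ends of each pathway are named. The genes, pathways and lists were chosen with earlier results of these data known. Alternatives covered the dye orientations, the row naming, centring, extreme values, single probes, the filter, robust moderation and each animal left out. Motifs were searched on both strands of RefSeq promoters of GRCm38.p6, also for TTGCGCAA (in 0.183% of promoters), CAAAGTCCA (0.475%) and a glucocorticoid element (0.475%). The printed promoters of Tat, Asns, Mccc1 and Hgd held no match to any of these. For arrays, precision is limited by how many animals were measured.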

Additional observations from a re-analysis of the deposited data

Results flagged for a closer look

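Of 82 sets of 6 animals or fewer that were examined, 12 held an animal far from the others, where chance gives about 5%. The sets come from the same animals and are not independent, and the rate over all features was not counted. The number after each gene is the animal's gap to its nearest neighbour as a share of the whole range.

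In the adults the gap was 0.802 for Gpt2 in animal 4, at -8.65 against -0.41 to 1.63 in the others. In animal 5, the adult measured with the mutant in Cy5 alone, it was 0.849 for Ftcd (1.26 against -0.29 to -0.059), 0.763 for Prodh2 (1.23 against -0.20 to 0.14) and 0.696 for Pcca (1.38 against -0.46 to 0.10). The dye profiles of these 3 genes were 0.83, 0.90 and -0.25.

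In the embryos the gap was 0.868 for Shmt2 in embryo 2, at 5.23 against -0.50 to 0.25, and 0.662 for Arg1 in embryo 5, at -0.55 against 0.048 to 0.35. The other 6 were all in embryo 1. These were 0.734 for Pccb (-0.30 against -0.0080 to 0.096), 0.663 for Gstz1 (-0.95 against -0.12 to 0.31), 0.653 for Gpt (0.28 against -0.056 to 0.062), 0.645 for Glul (1.01 against -0.054 to 0.32), 0.635 for Prodh2 (-0.74 against 0.18 to 0.71) and 0.631 for Shmt1 (0.55 against -0.018 to 0.19).

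Hgd lay below 0 in all 6 adults and above 0 in all 6 embryos. The difference itself, adult minus fetal on arrays with the mutant in Cy5, was -0.960 and did not pass (limma adjusted p = 0.0607).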

How the results depend on the processing

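The adult count of 0 features became 1760 with the Cy3 arrays turned in sign, 1106 with the mutant in Cy5 alone and 699 with the mutant in Cy3 alone, and stayed 0 under the other alternatives, each adult left out included. In the embryos 26 features became 83 without values beyond 10 in size, 88 by single probes, 81 with robust moderation, 61 with a value in all embryos, 4986 with the dye profile subtracted, and 2 to 5 with an embryo left out. For adult minus fetal 23 became 42 without values beyond 10, 40 with robust moderation, 36 with a value in all animals, 1579 with fetal rows as deposited (9.38% of all features, and 5 of 40 genes of the set), 9 with adult means over both dyes, and 4 to 1224 with an animal left out, 78 without embryo 5 and 1224 without adult 1. For females minus males 2 became 0 without values beyond 10, 1 with robust moderation, and 0 to 4 with an embryo left out. The numbers shared by adult Cy5 and fetal arrays (1, 3 and 5) did not pair them, with correlations of deviations of -0.0018, -0.0027 and 0.0090. With that number as a replicate block 2 features passed and the median of the set was -0.046. The same 3 arrays per age without the block, an alternative chosen after seeing the data, gave the same 2 and -0.046.

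The median of the set in the adults ranged from -0.27 to -0.091 over all alternatives. In the embryos it was 0.075 with the dye profile subtracted and otherwise between -0.023 and 0.044.

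Signs turned in 29 cases, and the cause was not tested. In the adults, with the Cy3 arrays turned, Mccc1 was -0.16, Gpt2 1.63, Gpt -0.19, Cth 0.61 and Uroc1 0.78. With Cy5 alone Gpt2 was 0.10, Gpt -0.044 and Uroc1 0.47, and with Cy3 alone Psat1 was -0.18, Ftcd -1.03, Prodh2 -0.93 and Pccb 0.23. Without values beyond 10, and so without the extreme array value of animal 4, Gpt2 was 0.061. With an adult left out Gpt2 ranged from -1.90 to 0.15 (without adult 4), Gpt from -0.0032 (without adult 4) to 0.19, and Ftcd from -0.20 to 0.12 and Prodh2 from -0.036 to 0.25, both lowest without adult 5, which is also the fit on the 5 adults with both dyes. In the embryos Arg1 was -0.034 by single probes and Asl ranged from -0.13 to 0.071 (without embryo 1). With rows as deposited, where each gene is read from other rows, Ass1 was 0.90, Arg1 -0.030, Hgd -0.17, Mmut -0.23 and Ivd 0.65. With the dye profile subtracted Asl was 0.057, Mmut -0.42 and Bckdhb 0.60, and 15 of 39 genes of the set passed (38.5%), against 30.3% of all features. A further 25 values kept their sign and came to pass under an alternative.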
